A study of Mus musculus with 45 samples.

Results

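The chemokine receptors that position lymphocytes were followed by RNA-seq through sorted T and B cells of the immunized lymph node, with and without S1PR4. The members were fixed by name as *Cxcr3*, *Cxcr4*, *Cxcr5*, *Cxcr6*, *Ccr2*, *Ccr4*, *Ccr6*, *Ccr7* and *Ccr9*. Each matched 1 row of the deposited table, so 9 of its 55450 genes are described. The study compared mice lacking S1PR4, a sphingosine-1-phosphate receptor, with wildtype (WT) mice to ask how the loss affects lymphocytes of the germinal center (GC) reaction. Mice were male and female, aged 8 to 12 weeks, and both genotypes received the same footpad injection of 20 µL of an incomplete Freund's adjuvant emulsion with 50 µg ovalbumin and 5 µg lipopolysaccharide. The S1PR4-/- mice carried the B6.129P2-S1pr4tm1Dgen/J allele, backcrossed to C57/BL6 for at least 10 generations, and WT littermates were the controls. The knockout is germline, so the sorted cells and their surroundings lacked the receptor alike.

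The popliteal draining lymph nodes (dLN) gave 45 samples in 8 groups. Tfh cells (TCRβ+ CD4+ PD1+ CXCR5+) and non-Tfh CD4+ T cells (PD1- CXCR5-) were sorted on Day 6, with 6 WT and 6 S1PR4-/- samples each. GC B cells (B220+ GL7+ Fas+) were sorted on Day 9 with 6 samples per genotype, and non-GC B cells (B220+ GL7- Fas-) on the same day with 5 WT and 4 S1PR4-/- samples. B and T cells were therefore taken on different days, and cell type and day cannot be told apart where they are compared. Because CXCR5 protein set the T cell gates, the *Cxcr5* difference between Tfh and non-Tfh cells describes the sort and is not a finding.

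Chemokine receptors are G protein-coupled receptors that couple mainly to Gαi proteins and steer cells along gradients of small secreted ligands. In lymph nodes, CCR7 holds naïve lymphocytes near the T zone through CCL19 and CCL21, and CXCR5 draws cells into the follicle through CXCL13. CXCR4 responds to CXCL12, which is made in the dark zone of the GC, while CXCR3, CXCR6, CCR2, CCR4, CCR6 and CCR9 are known for guiding activated and effector cells to inflamed tissue, skin or gut.

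Totals ran from 26299429 to 45548215 expected counts per sample. *S1pr4* counts lay between 505 and 6305 in the WT samples and between 0 and 40 in the S1PR4-/- samples. Markers matched the sorted populations, since *Cd3e* was between 619 and 980 CPM (counts scaled to a common library size) in T cell samples and at most 0.959 CPM in B cell samples. *Cd79a*, a B cell receptor subunit, was at least 1067 CPM in B cell samples and at most 47.1 CPM in T cell samples. The summed level of 8 B cell markers in WT Tfh samples reached 1.12% to 3.21% of its median in WT non-GC B samples, against 0.0868% to 0.354% in WT non-Tfh samples. In bulk samples fewer cells of a type and less RNA per cell cannot be told apart.

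The non-GC B samples were not uniform. In 5 of the 9, namely WT replicates 4 and 5 and S1PR4-/- replicates 2, 3 and 4, *Siglech*, a lectin gene of plasmacytoid dendritic cells, was between 15.3 and 40.1 CPM. It was between 0 and 1.02 CPM in the other 4. In the same 5 samples *Ccr9* lay between 3.54 and 18.6 CPM and *Ccr2* between 2.28 and 4.99 CPM, against 0 to 0.787 CPM and 0.0338 to 0.525 CPM in the others. *Cxcr3* was 0 to 2.18 CPM in the other 4 and 2.73 to 4.50 CPM in these 5. The natural killer cell genes *Ncr1* (0.843 to 5.94 CPM) and *Klrb1c* (1.29 to 9.46 CPM) were higher there too, with 0 and at most 0.341 CPM in the other 4. *Cd79a* was 2797 to 3107 CPM in these 5 and 2515 to 2674 CPM in the rest. This split was noticed in the data and carries no test, and the levels of *Ccr9*, *Ccr2* and *Cxcr3* in non-GC B cells are given with it in view.

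**Figure D1:**
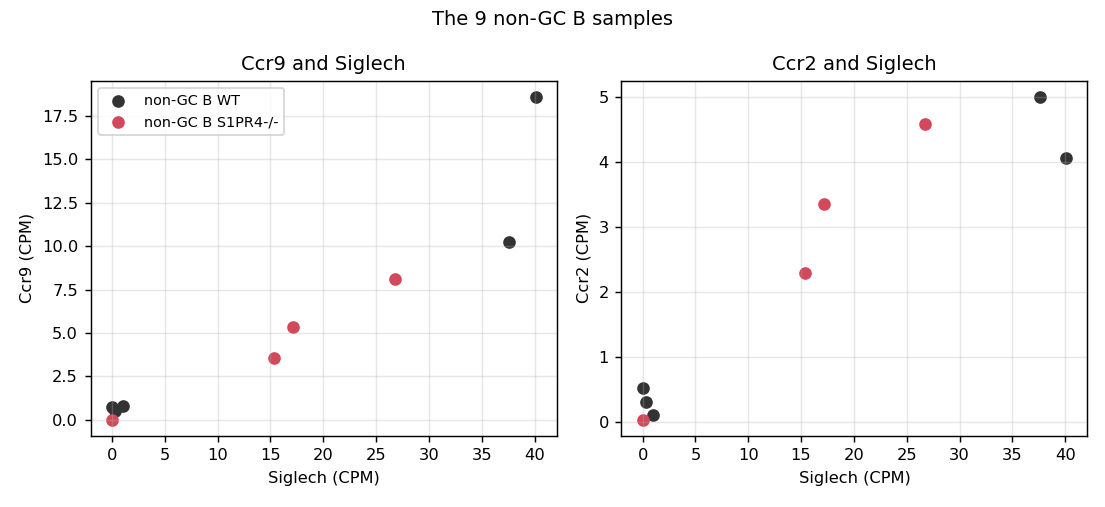
Levels of *Ccr9* (left) and *Ccr2* (right) in CPM against *Siglech* in CPM for the 9 non-GC B samples, a point per sample, WT in black and S1PR4-/- in red. The 5 samples with *Siglech* of 15.3 CPM or more hold *Ccr9* from 3.54 to 18.6 CPM, and the other 4 stay at or below 0.787 CPM.

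A group of 5 members lies on chromosome 9 (mm10, GENCODE M21). *Cxcr5* (ENSMUSG00000047880.15, chr9:44511787-44561877) and *Ccr4* (ENSMUSG00000047898.7, chr9:114490316-114504916) are on the minus strand. *Ccr9* (ENSMUSG00000029530.16, chr9:123678439-123784330), *Cxcr6* (ENSMUSG00000048521.8, chr9:123806475-123811760) and *Ccr2* (ENSMUSG00000049103.14, chr9:124101950-124113557) follow each other on the plus strand. *Cxcr4* (ENSMUSG00000045382.6, chr1:128588199-128592293), *Ccr7* (ENSMUSG00000037944.8, chr11:99144196-99155077) and *Cxcr3* (ENSMUSG00000050232.6, chrX:101731535-101734269) are on the minus strand, and *Ccr6* (ENSMUSG00000040899.14, chr17:8236043-8257141) is on the plus strand. Reads of 2 members are less certain than the rest. Of the 31-base words in *Ccr2* transcripts, 3.41% occur in transcripts of other genes. *Ccr9* shares 3.12% of its words with other genes and overlaps *Gm17020* and *Gm17200* on its own strand and *Lztfl1* and *Slc6a20a* on the opposite strand. *Cxcr5* overlaps *Bcl9l* and *Cxcr6* overlaps *Fyco1*, both on the opposite strand, and whether counting used strand is not given in the sources used here.

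Upstream sequence in the RefSeq promoter table (GRCm38.p6) was found for 7 of the 9 members. It is shown for the 3 of them outside the sort gate that rose in Tfh cells and whose window is free of M21 exons (*Cxcr6*, *Ccr4*, *Ccr6*), and for *Ccr9*, which fell. Each line holds the 200 bases from 250 to 51 before the RefSeq start, read 5′ to 3′ on the gene's strand, and capitals mark motif matches.
Cxcr6 (chr9:123806227-123806426, plus strand): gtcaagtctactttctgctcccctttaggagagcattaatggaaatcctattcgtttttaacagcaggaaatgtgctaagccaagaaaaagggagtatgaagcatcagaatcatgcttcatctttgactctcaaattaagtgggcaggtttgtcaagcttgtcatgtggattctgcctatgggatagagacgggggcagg
Ccr4 (chr9:114496595-114496794, minus strand): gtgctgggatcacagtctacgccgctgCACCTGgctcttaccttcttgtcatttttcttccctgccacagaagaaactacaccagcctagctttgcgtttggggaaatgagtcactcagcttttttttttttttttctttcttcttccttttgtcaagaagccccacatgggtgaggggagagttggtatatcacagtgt
Ccr6 (chr17:8235793-8235992, plus strand): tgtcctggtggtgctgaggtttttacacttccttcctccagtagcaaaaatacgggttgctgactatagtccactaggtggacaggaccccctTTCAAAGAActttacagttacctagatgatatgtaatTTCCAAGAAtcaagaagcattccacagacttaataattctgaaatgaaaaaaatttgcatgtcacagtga
Ccr9 (chr9:123766961-123767160, plus strand): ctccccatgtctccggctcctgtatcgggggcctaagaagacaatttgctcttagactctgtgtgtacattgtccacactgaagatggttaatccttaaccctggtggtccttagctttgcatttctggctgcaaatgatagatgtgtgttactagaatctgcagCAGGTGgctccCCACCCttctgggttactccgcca
The *Ccr4* and *Ccr9* windows lie in introns of the longer M21 genes, the *Cxcr6* and *Ccr6* windows upstream of them. Searched on both strands were the T-box core GGTGTGA, the E-box CAGGTG, the Runx motif TGTGGTT, the STAT motif TTCNNNGAA and the CACCC box CCACCC. The *Ccr6* window held 2 STAT motifs, 157 and 120 bases before the start, and 5.76% of 32851 windows of this length held the motif. The E-box (14.4% of windows) was in the *Ccr4* window at 223 and in the *Ccr9* window at 85 bases before the start. It was also in the *Cxcr3* window, which is not shown, at 116 bases. The CACCC box (22.4% of windows) stood in the *Ccr9* window at 74 bases. None of the letters searched was in the *Cxcr6* window, and no matches overlapped. The T-box core (2.71%) and the Runx motif (3.50%) were in none of the 7 members' windows.

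Levels of different genes were compared per kilobase of exon. In WT Tfh cells *Cxcr5* stood first with 284 ± 23.7 CPM per kb (SD, n = 6), ahead of *Cxcr3* with 117 ± 14.8 and *Ccr7* with 64.2 ± 7.46. In WT non-Tfh cells the level of *Ccr7* per kb was 729 ± 75.4 (SD, n = 6), and *Cxcr3* came next with 12.9 ± 4.20. In WT GC B cells *Cxcr5* (82.3 ± 18.9 CPM per kb), *Cxcr3* (77.3 ± 37.0), *Ccr6* (62.4 ± 35.0) and *Ccr7* (47.4 ± 35.1) lay close together relative to their spread (SD, n = 6). In WT non-GC B cells the levels per kb were 216 ± 30.6 for *Ccr7*, 152 ± 8.61 for *Cxcr5*, 49.0 ± 7.57 for *Ccr6* and 39.2 ± 8.17 for *Cxcr4* (SD, n = 5), and the other members were at or below 1.40 CPM per kb.

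**Figure D2:**
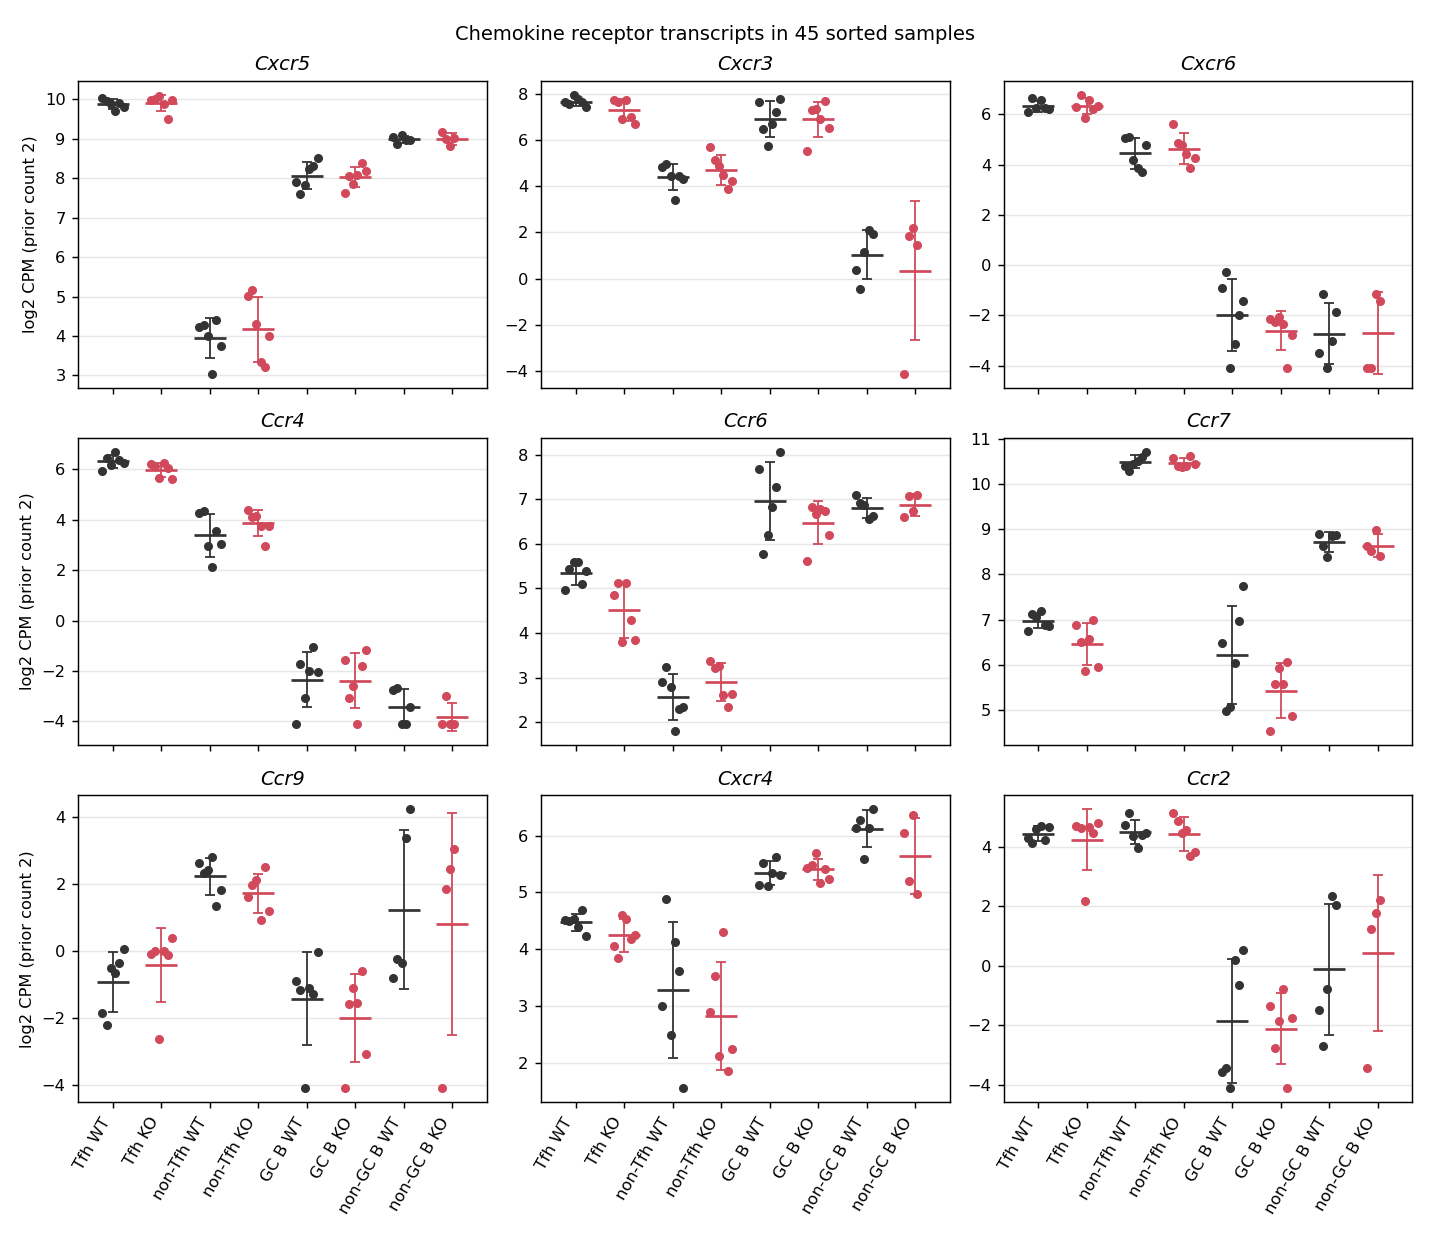
Level of each receptor as log2 CPM (prior count 2) in every sample of the 8 groups, a point per sample, with the group mean (horizontal line) and SD (bars), WT in black and S1PR4-/- (KO) in red. *Cxcr6* and *Ccr4* sit high in both T cell populations and near the lowest value the scale allows in B cells, and *Ccr7* is highest in non-Tfh cells.

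The follicular receptor *Cxcr5* and the T zone receptor *Ccr7* are described first. *Cxcr5* ranged from 828 through a median of 952 to 1051 CPM in WT Tfh samples and from 8.15 through 17.3 to 20.999 CPM in WT non-Tfh samples, in keeping with the gate. In WT non-GC B samples it was 527, 468, 543, 499 and 499 CPM, and in WT GC B samples it ran from 196 through 272 to 362 CPM. The 4 populations did not overlap, so all 3 steps in the order Tfh, non-GC B, GC B, non-Tfh passed a two-sided exact permutation test (adjusted p = 0.00731, 0.00731 and 0.00649 over the 27 neighbouring pairs of the 9 members). The first and last of these steps involve T cells gated on CXCR5 protein, so they include the sort. *Ccr7* had the reverse order at the top, with 1247, 1417 and 1665 CPM as lowest, median and highest value in WT non-Tfh samples. It was 473, 396, 334, 463 and 467 CPM in WT non-GC B samples. In WT Tfh samples *Ccr7* ran from 108 through 126 to 146 CPM and in WT GC B samples from 31.6 through 78.3 to 216 CPM. The last 2 groups overlapped and could not be ordered (exact permutation test, adjusted p = 0.184), while the 2 steps above them passed (adjusted p = 0.00731 each).

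Which receptors marked Tfh against non-Tfh cells was tested by edgeR, where a gene was called with an adjusted p under 0.05 and a fold change over 1.5. In WT mice all 9 members passed the low-count filter, 5 were called higher in Tfh cells and 2 lower. Over all 13481 genes tested, 22.8% were called higher and 20.4% lower. Outside *Cxcr5*, the receptors that rose were *Cxcr3*, *Ccr4*, *Ccr6* and *Cxcr6*. *Cxcr3*, a receptor for interferon-induced chemokines, was between 173 and 246 CPM in WT Tfh samples (median 198) and between 10.6 and 31.4 CPM in WT non-Tfh samples (median 21.6). The groups were far apart, 9.12-fold on average (log2 fold change 3.19, SE 0.20, adjusted p = 4.23e-09). *Ccr4*, whose ligands are CCL17 and CCL22, rose from 4.37 to 20.2 CPM (median 9.92) to 61.7 to 103 CPM (median 80.4), 6.79-fold without overlap (log2 fold change 2.76, SE 0.31, adjusted p = 1.45e-06). *Ccr6*, the CCL20 receptor, was 3.42 to 9.34 CPM (median 5.94) in non-Tfh and 31.2 to 48.5 CPM (median 42.5) in Tfh samples, a 6.72-fold difference (log2 fold change 2.75, SE 0.21, adjusted p = 2.98e-08). *Ccr6* is also a B cell transcript, and the summed B cell markers were 141 to 406 CPM in these Tfh samples against at most 44.7 CPM in the non-Tfh samples. If these markers came from cells like WT non-GC B cells, such cells would carry 1.27 to 3.65 CPM of *Ccr6* in the WT Tfh samples. The lowest value measured there was 31.2 CPM. The part of B cells in the *Ccr6* difference was not tested. *Cxcr6*, the CXCL16 receptor, went from 13.0 to 34.1 CPM (median 22.8) to 67.1 to 98.9 CPM (median 75.6), the smallest of these rises at 3.46-fold (log2 fold change 1.79, SE 0.23, adjusted p = 5.97e-06).

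The receptors that fell in Tfh cells were *Ccr7* and *Ccr9*. *Ccr7*, with the values above, was 11.3-fold lower (log2 fold change -3.50, SE 0.09, adjusted p = 4.80e-12). *Ccr9*, the gut homing receptor for CCL25, was 2.47 to 6.91 CPM (median 5.09) in WT non-Tfh samples and 0.155 to 0.980 CPM (median 0.604) in WT Tfh samples, which is 6 to 34 counts per sample. The difference was 8.83-fold without overlap (log2 fold change -3.14, SE 0.39, adjusted p = 5.44e-06). *Cxcr4* and *Ccr2* were not called. *Cxcr4* was 18.8 to 25.8 CPM (median 22.7) in Tfh samples and spread from 2.86 to 29.6 CPM (median 10.1) in non-Tfh samples, where the samples varied more than 10-fold. Its log2 fold change was 0.82 (SE 0.40, 95% CI -0.03 to 1.67, adjusted p = 0.0790), and without non-Tfh replicate 2, the highest, it was 1.27 and called (adjusted p = 0.00416). With the replicate block it was 1.17 and called (adjusted p = 0.0155). It was also called by limma voom (1.22, adjusted p = 0.00712) and by edgeR with all 8 groups in 1 fit (0.82, adjusted p = 0.0350). *Ccr2*, the receptor for CCL2 and its relatives, was 17.3 to 26.0 CPM (median 22.1) in Tfh and 15.5 to 35.5 CPM (median 21.7) in non-Tfh samples. Its difference was confined to a log2 interval of -0.47 to 0.26 (log2 fold change -0.10, adjusted p = 0.605).

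In S1PR4-/- mice 6 members were called higher in Tfh cells and 2 lower, with 22.3% and 21.1% of 13390 genes called in these directions. The log2 fold changes were 2.53 for *Cxcr3* (SE 0.29), 1.68 for *Ccr6* (SE 0.27) and 1.64 for *Cxcr6* (SE 0.24), and *Ccr4* was 4.29-fold higher (adjusted p = 3.91e-07). Those of *Ccr7* and *Ccr9* were -3.93 (SE 0.18) and -2.04 (SE 0.41). The S1PR4-/- Tfh and non-Tfh samples did not overlap for any of these 6 receptors. Of all genes 73.0% had an unadjusted p under 0.05 by edgeR in this comparison. The share of all genes without overlap is not given. *Cxcr4* was 14.3 to 24.2 CPM (median 18.5) in Tfh and 3.55 to 19.6 CPM (median 6.02) in non-Tfh samples, overlapping but called (log2 fold change 1.19, SE 0.36, adjusted p = 0.00900). *Ccr2* was again not called (log2 fold change -0.05, 95% CI -0.79 to 0.69, adjusted p = 0.904). Whether these shifts differed between genotypes was tested as an interaction and is given with the genotype comparisons.

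**Figure D3:**
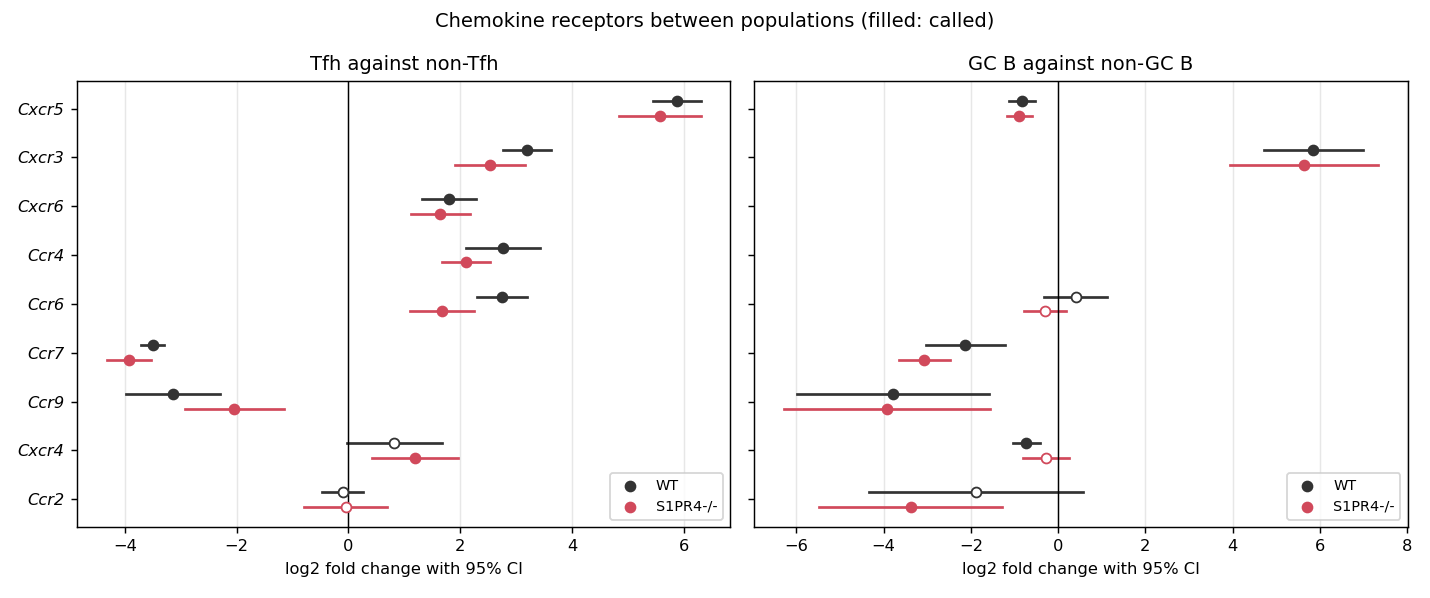
Log2 fold change with 95% confidence interval of each receptor for Tfh over non-Tfh cells (left) and for GC B over non-GC B cells (right), WT in black and S1PR4-/- in red, filled where called. *Ccr7* falls and *Cxcr3* rises on both sides. *Ccr9* falls on the left, and its fall on the right was not called without the non-GC B samples of high *Siglech* (-0.58 in WT, and turned to 6.12 in S1PR4-/- mice). *Cxcr6* and *Ccr4* have no value on the right because they did not pass the low-count filter there.

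GC B cells were compared with non-GC B cells of the same day. In WT mice 7 of the 9 members passed the filter, 1 was called higher in GC B cells and 4 lower, where 24.8% of 13324 genes were called higher and 23.1% lower. *Cxcr3* was the receptor that rose. It was 1.26, 0.688, 2.18, 4.27 and 3.73 CPM in the WT non-GC B samples and 52.8 to 216 CPM (median 124) in the WT GC B samples, a 57.8-fold difference without overlap (log2 fold change 5.85, SE 0.52, adjusted p = 7.60e-07). Without the WT non-GC B samples of high *Siglech* its log2 fold change was 6.65 (SE 0.60). *Cd3e* stayed at or below 0.925 CPM in the same GC B samples. The summed level of 8 T cell markers was 128 to 163 CPM in them and 81.7 to 123 CPM in the WT non-GC B samples. Plasma cell transcripts were higher in GC B samples too, since the summed level of 6 plasma cell markers was 3989 to 8760 CPM in WT GC B and 511 to 854 CPM in WT non-GC B samples, and it reached 17642 CPM in S1PR4-/- GC B replicate 3. The part of T cell and plasma cell transcripts in the GC B values of the receptors was not tested. *Ccr7* was lower in each of the 6 GC B samples than in any non-GC B sample (log2 fold change -2.13, SE 0.42, adjusted p = 0.000606). *Cxcr5* was 1.77-fold lower, also without overlap (log2 fold change -0.82, SE 0.13, adjusted p = 0.000134).

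*Cxcr4*, which guides GC B cells to the dark zone, was 34.6 to 49.2 CPM (median 40.2) in WT GC B samples and 70.5, 77.5, 48.0, 70.2 and 88.4 CPM in WT non-GC B samples. It was called lower, with 1 non-GC B sample inside the GC B range (log2 fold change -0.73, SE 0.14, adjusted p = 0.000597). *Ccr6* was 54.3 to 267 CPM (median 135) in WT GC B and 137, 122, 118, 94.4 and 98.1 CPM in WT non-GC B samples. Its GC B samples lay on both sides of the non-GC B samples, and it was not called (log2 fold change 0.41, 95% CI -0.31 to 1.13, adjusted p = 0.294). *Ccr9* was called lower in GC B cells (log2 fold change -3.79, SE 1.01, adjusted p = 0.00514), but its WT non-GC B values were 0.509, 0.787, 0.709, 10.2 and 18.6 CPM and those of GC B samples 0 to 0.924 CPM. The high pair are the WT samples with *Siglech* above 10 CPM, and without them the log2 fold change of *Ccr9* was -0.58 (adjusted p = 0.520). By limma voom with all samples it was -2.84 and not called (adjusted p = 0.0921). *Ccr2*, at 0.300, 0.0983, 0.525, 4.99 and 4.05 CPM in WT non-GC B samples, was not called (log2 fold change -1.88, 95% CI -4.33 to 0.57, adjusted p = 0.157). It was called with the replicate block (-2.80, adjusted p = 0.00397), and turned to 0.79 (adjusted p = 0.595) without the 2 WT samples of high *Siglech*. *Cxcr6* and *Ccr4* were near the limit of detection in B cells. *Cxcr6* had 0 to 22 counts and *Ccr4* 0 to 11 counts per WT GC B sample, with 0 to 12 and 0 to 3 counts per WT non-GC B sample. A level of 3 counts corresponds to 0.0788 to 0.107 CPM in the latter.

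In S1PR4-/- mice 1 member was called higher in GC B cells and 4 lower, where 25.3% and 22.9% of 13484 genes were called. The log2 fold changes were 5.64 for *Cxcr3* (SE 0.77), -3.06 for *Ccr7* (SE 0.27), -0.89 for *Cxcr5* (SE 0.13), -3.92 for *Ccr9* (SE 1.08) and -3.38 for *Ccr2* (SE 0.95). *Cxcr4* was not called (log2 fold change -0.29, 95% CI -0.81 to 0.24), with 65.9, 36.6, 82.8 and 31.2 CPM in the non-GC B samples around the GC B range of 36.1 to 51.7 CPM. *Ccr6* was not called either (log2 fold change -0.30, 95% CI -0.77 to 0.17). *Ccr9* in the S1PR4-/- non-GC B samples was 0, 3.54, 5.31 and 8.12 CPM and *Ccr2* was 0.0338, 2.28, 3.34 and 4.58 CPM, and the lowest value of each is the sample with *Siglech* at 0 CPM. By limma voom *Ccr9* was at -3.04 (adjusted p = 0.235) and *Ccr2* at -2.94 (adjusted p = 0.127), and neither was called. Neither was called either, and the fitted values turned to 6.12 and 2.69, with that sample alone as the non-GC B group, assumed to vary as the GC B group does, where 3 members were called. The part of other cells in these *Ccr9* and *Ccr2* values was not tested.

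Across lineages, non-GC B cells were set against non-Tfh T cells and GC B cells against Tfh cells in WT mice. In non-GC B cells 3 members were called higher and 5 lower, against 19.7% and 19.1% of 13669 genes. The higher ones were *Cxcr5* (log2 fold change 5.04, SE 0.20, a difference that includes the CXCR5- gate of the T cells), *Ccr6* (4.28, SE 0.22) and *Cxcr4* (2.55, SE 0.45). The lower ones were *Ccr7* (-1.70, SE 0.11), *Cxcr3* (-3.14, SE 0.42), *Ccr2* (-3.52, SE 0.71), *Cxcr6* (-7.36, SE 0.57) and *Ccr4* (-7.91, SE 0.66). These 8 receptors did not overlap between the 2 populations, where 61.5% of all genes had an unadjusted p under 0.05 by edgeR. How many of all genes did not overlap is not given. *Ccr9* overlapped and was not called (log2 fold change 0.40, SE 0.79), and turned to -2.80 (adjusted p = 6.91e-05) without the 2 WT samples of high *Siglech*. Without them *Ccr2* was at -6.14 and *Cxcr3* at -3.94.

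In GC B against Tfh cells 2 members were called higher and 4 lower, against 20.1% and 24.2% of 13719 genes. *Ccr6* was higher in GC B cells (log2 fold change 1.82, SE 0.33) and so was *Cxcr4* (0.88, SE 0.11), both without overlap. *Cxcr5* was lower (-1.78, SE 0.14), with the Tfh cells gated on its protein, and *Ccr2* (-5.38, SE 0.66), *Cxcr6* (-8.07, SE 0.43) and *Ccr4* (-8.84, SE 0.35) were lower. *Cxcr3* did not pass (log2 fold change -0.59, 95% CI -1.18 to -0.01, adjusted p = 0.0684). It was called without GC B replicate 1 (-0.73, adjusted p = 0.0324) and without GC B replicate 6 (-0.78, adjusted p = 0.0163), and by limma voom (-0.74, adjusted p = 0.0261). *Ccr7* (-0.43, 95% CI -1.25 to 0.40) was called only without GC B replicate 6, at -0.86 (adjusted p = 0.0229). *Ccr9* was not called (-0.35, 95% CI -1.65 to 0.95).

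Of the 27 neighbouring steps in the order of WT population means, 17 passed the exact permutation test after adjustment. These include the *Cxcr5* steps, of which the first and last involve T cells gated on CXCR5 protein. The share of passing steps over all genes is not given. By edgeR, between 61.5% and 71.2% of all genes had an unadjusted p under 0.05 in the comparisons of WT populations. For *Cxcr3* the order was Tfh (203 ± 25.6 CPM), GC B (134 ± 64.1), non-Tfh (22.3 ± 7.27) and non-GC B (2.43 ± 1.54, SD, n = 6, 6, 6 and 5), and the first step did not pass (adjusted p = 0.0554). For *Cxcr4* it was non-GC B (70.9 ± 14.8 CPM), GC B (40.8 ± 5.88), Tfh (22.3 ± 2.35) and non-Tfh (12.6 ± 9.79), where the last step did not pass (adjusted p = 0.0519). For *Ccr6* GC B (145 ± 81.1 CPM) and non-GC B (114 ± 17.6) could not be told apart (adjusted p = 0.719), and both were above Tfh (41.1 ± 7.16) and non-Tfh (6.13 ± 2.13). *Cxcr6* and *Ccr4* shared the order Tfh, non-Tfh, GC B, non-GC B, with a last step that did not pass (adjusted p = 0.419 and 0.134). *Ccr2* did not separate non-Tfh (23.5 ± 6.82 CPM) from Tfh (21.9 ± 3.76, adjusted p = 0.719) nor non-GC B from GC B (adjusted p = 0.271). *Ccr9* separated non-Tfh from Tfh cells alone (adjusted p = 0.00649 for that step, 0.407 and 0.570 for the others).

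Whether loss of S1PR4 altered the receptors was asked within each population. In Tfh cells 0 of 9 members were called, where 0.496% of 13495 genes were. At an unadjusted p under 0.05 there were 3 of 9 members, against 19.2% of all genes. DESeq2 called 1 member, *Ccr6*, among 184 genes, while limma voom called 0. *Ccr6* was 31.2 to 48.5 CPM (median 42.5) in WT and 13.8 to 34.9 CPM (median 24.1) in S1PR4-/- Tfh samples. The groups overlapped, although 4 S1PR4-/- samples lay below the lowest WT sample. Its log2 fold change was -0.76 (SE 0.23, 95% CI -1.24 to -0.28), with an adjusted p of 0.0905 by edgeR's quasi-likelihood test and of 0.0130 by DESeq2, and the adjusted p ran from 0.0130 to 0.192 over all alternatives. Leaving out each sample kept this value between -0.90 and -0.64. *Ccr7* was 108 to 146 CPM (median 126) in WT and 58.4 to 128 CPM (median 92.9) in S1PR4-/- Tfh samples (log2 fold change -0.47, 95% CI -0.83 to -0.11, adjusted p = 0.148). *Ccr4* was 61.7 to 103 CPM (median 80.4) against 49.8 to 76.5 CPM (median 68.3), at -0.34 (95% CI -0.62 to -0.05, adjusted p = 0.185). Neither passed, and their ranges overlapped.

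The other 6 members in Tfh cells had log2 fold changes from -0.33 (*Cxcr3*) to 0.59 (*Ccr9*). *Cxcr3* was 173 to 246 CPM in WT and 104 to 213 CPM in S1PR4-/- Tfh samples (95% CI -0.70 to 0.04, adjusted p = 0.318). *Cxcr5* was the most tightly bounded, at 0.02 (95% CI -0.16 to 0.21). Tfh cells of both genotypes were sorted as CXCR5+, so the gate and a genotype effect on *Cxcr5* cannot be told apart here. Some S1PR4-/- Tfh samples stood apart. Replicate 3 had *Ccr2* at 4.49 CPM, where the others had 22.2 to 27.6 CPM, and the lowest *Ccr6* and *Ccr7*. Replicate 6 had a summed level of 432 CPM over the 8 myeloid and dendritic markers, with *Lyz2* at 342 CPM, against 13.4 to 66.3 CPM in the other 5 and 20.8 to 77.7 CPM in WT. Without replicate 3 the log2 fold change of *Ccr6* was -0.64, and without replicate 6 it was -0.65.

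In non-Tfh cells 0 of 9 members were called, where 0.114% of 13197 genes were, and 0 had an unadjusted p under 0.05, against 11.3% of all genes. Log2 fold changes lay between -0.57 (*Cxcr4*, 95% CI -1.66 to 0.53) and 0.35 (*Cxcr3*, 95% CI -0.24 to 0.95). *Ccr7*, the dominant receptor there, was 1332 to 1560 CPM in S1PR4-/- and 1247 to 1665 CPM in WT samples, with an interval of -0.18 to 0.12. In GC B cells 0 of the 6 members tested were called, where 0.0612% of 13070 genes were. An unadjusted p under 0.05 was found for 1 of these members, against 4.13% of all genes. *Ccr7* had an unadjusted p of 0.0371 by edgeR's quasi-likelihood test, with 23.2 to 67.5 CPM (median 47.9) in S1PR4-/- and 31.6 to 216 CPM (median 78.3) in WT samples (log2 fold change -1.02, 95% CI -1.96 to -0.07, adjusted p = 0.985). WT replicate 6 was the highest, and without it the value was -0.58. *Ccr6* was 48.8 to 113 CPM in S1PR4-/- and 54.3 to 267 CPM in WT GC B samples (log2 fold change -0.64, 95% CI -1.39 to 0.10, adjusted p = 0.985). The other intervals in GC B cells were -0.83 to 0.76 for *Cxcr3*, -0.18 to 0.31 for *Cxcr4* and -0.37 to 0.28 for *Cxcr5*. In non-GC B cells 0 of the 7 members tested were called, where 0.0537% of 13038 genes were. Of these members 0 had an unadjusted p under 0.05, against 4.55% of all genes. *Cxcr5* (95% CI -0.15 to 0.20), *Ccr6* (-0.23 to 0.37) and *Ccr7* (-0.37 to 0.21) had the narrowest intervals there. The widest were those of *Ccr9* (-3.12 to 2.07), *Ccr2* (-2.06 to 2.80) and *Cxcr3* (-1.79 to 2.11). Without the samples of high *Siglech*, S1PR4-/- replicate 1 stood alone, with 0 counts of *Cxcr3* and *Ccr9*. Fitted values were then -8.51 for *Cxcr3*, -7.46 for *Ccr9*, -3.06 for *Ccr2* and -0.37 for *Ccr6*. Those of the rest lay between -0.01 (*Ccr7*) and 0.18 (*Cxcr5*). DESeq2 also called 0 members in non-Tfh, GC B and non-GC B cells.

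The genotype effect was then compared between populations. For Tfh minus non-Tfh cells 0 of 9 members passed an adjusted p under 0.05, where 0.0139% of 14401 genes did. *Ccr6* had the lowest p, with a difference of -1.09 on the log2 scale (SE 0.35, 95% CI -1.82 to -0.36, adjusted p = 0.338). *Ccr7* had -0.44 (95% CI -0.85 to -0.04, adjusted p = 0.494), and these 2 of 9 members had an unadjusted p under 0.05, against 9.20% of all genes. The replicate block in this fit also ties WT and S1PR4-/- samples of the same number, which were different mice. Pairing by number was supported by the data between Tfh and non-Tfh samples of S1PR4-/- mice. Across genotypes the same number correlated best in 1 of 6 pairs of Tfh and 3 of 6 pairs of non-Tfh samples. With this block the difference was -1.15 for *Ccr6* (adjusted p = 0.196 by edgeR) and -0.47 for *Ccr7*, and 0 members passed. For GC B minus non-GC B cells 0 of 8 members passed, where 0% of 14490 genes did, and 0 had an unadjusted p under 0.05, against 4.58% of all genes. DESeq2 called 0 members in both. Both interaction fits share the samples of the single comparisons.

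**Figure D4:**
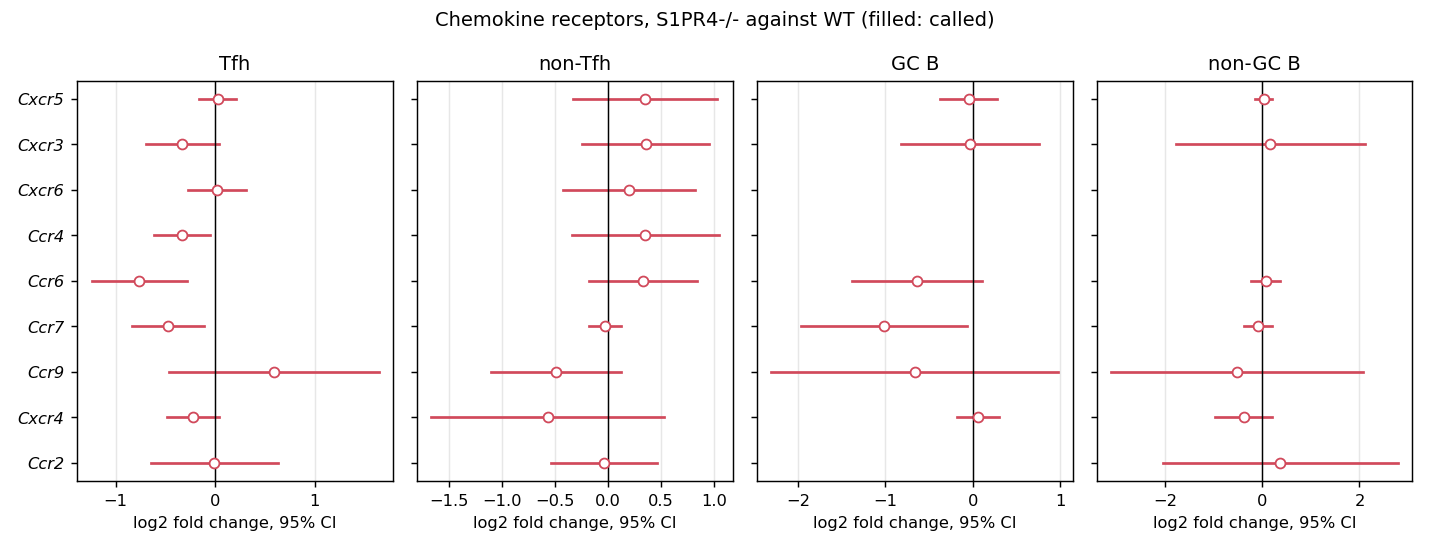
Log2 fold change of S1PR4-/- over WT with 95% confidence interval for each receptor in the 4 populations, open circles where not called. No receptor is called. The intervals of *Ccr6*, *Ccr7* and *Ccr4* in Tfh cells and of *Ccr7* in GC B cells lie below 0 before adjustment, and receptors without a circle did not pass the low-count filter.

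Receptors also varied together among samples of the same group. Deviations from the genotype means were correlated on the log2 scale over 12 samples for 10 pairs in GC B cells and 28 pairs in Tfh cells, with permutations within genotype and adjustment over the 38 pairs. In GC B cells *Ccr6* and *Ccr7* had Pearson's r = 0.93 (permutation p = 0.000220, adjusted p = 0.00418) and Spearman's rho = 0.80 (permutation p = 0.00956). *Cxcr3* followed both, with r = 0.87 and rho = 0.84 to *Ccr6* (permutation p = 0.000700 and 0.00242, adjusted p of r 0.00887). To *Ccr7* it had r = 0.87 and rho = 0.88 (permutation p = 0.000200 and 0.000690, adjusted p of r 0.00418). Without the 2 samples farthest from the median these r were 0.91, 0.84 and 0.85. Within the 6 WT and the 6 S1PR4-/- samples they were 0.95 and 0.90 for *Ccr6* with *Ccr7*, 0.89 and 0.93 for *Cxcr3* with *Ccr6*, and 0.87 and 0.95 for *Cxcr3* with *Ccr7*. *Cxcr4* did not move with them, with r of 0.19 to *Cxcr3*, -0.07 to *Ccr6* and 0.20 to *Ccr7* (permutation p = 0.566, 0.847 and 0.559).

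The low end of this range was S1PR4-/- replicate 1 with 48.8 CPM of *Ccr6* and 23.2 CPM of *Ccr7*, and the high end WT replicate 6 with 267 and 216 CPM. Over the 12 GC B samples *Ighd* and *Cd38*, both named after their values were seen, had r of 0.95 and 0.98 with *Ccr7* and of 0.74 and 0.87 with *Cxcr3*. *Ighd* spanned 184 to 1185 CPM in WT GC B samples, against 3884 to 4551 CPM in WT non-GC B samples. The summed GC B markers had r = -0.71 and the summed B cell markers r = 0.69 with *Ccr7*. The myeloid and dendritic list (r = 0.80, 101 to 299 CPM in WT GC B samples) and the stromal and endothelial list (r = 0.79) also rose with *Ccr7*. In the former list *Flt3* alone was 70.1 to 103 CPM in WT GC B samples, *Lyz2* was 24.7 to 172 CPM and *Csf1r* 1.73 to 13.4 CPM. In the stromal and endothelial list 1 of 5 genes reached 1 CPM in GC B samples. Its sum was 88.8 to 180 CPM in WT GC B and 302 to 385 CPM in WT non-GC B samples, so it does not mark stromal cells here. *Cxcr3* itself was at most 4.50 CPM in every non-GC B sample, below each of the 12 GC B samples (46.5 CPM or more). What part other cells had in the shared variation was not tested.

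**Figure D5:**
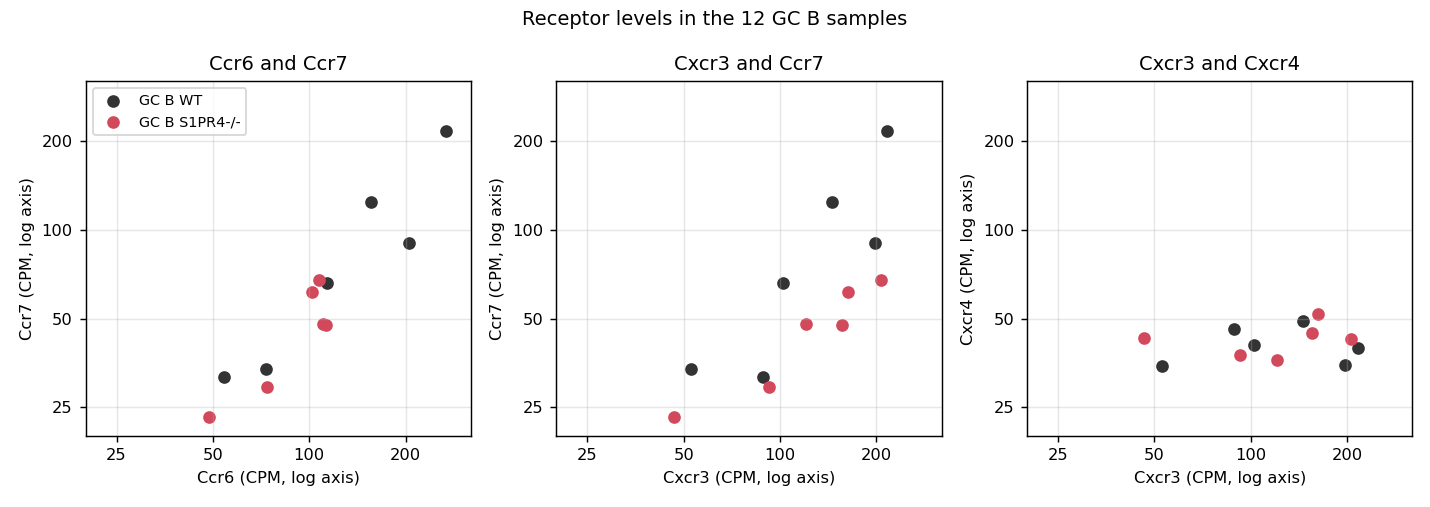
Levels in CPM on log axes of *Ccr6* and *Ccr7* (left), *Cxcr3* and *Ccr7* (middle) and *Cxcr3* and *Cxcr4* (right) in the 12 GC B samples, WT in black and S1PR4-/- in red. *Ccr7* rises with *Ccr6* and *Cxcr3* from 23.2 to 216 CPM, while *Cxcr4* stays between 34.6 and 51.7 CPM.

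In Tfh cells 1 of the 28 pairs passed, *Ccr4* with *Ccr6* (r = 0.78, permutation p = 0.00400, adjusted p = 0.0380, rho = 0.78, permutation p = 0.00441). Its r was 0.68 without the 2 farthest samples, 0.57 within WT and 0.93 within S1PR4-/- samples. *Cxcr3* with *Ccr6* had r = 0.88 and rho = 0.85 (permutation p = 0.0120 and 0.0230) but did not pass (adjusted p of r 0.0570), with 0.39 within WT and 0.96 within S1PR4-/- samples. *Cxcr5* tended the other way against *Ccr7*, at r = -0.64 and rho = -0.61, and did not pass either (permutation p = 0.0299 and 0.0532, adjusted p of r 0.103).

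Over all 45 samples the genes whose log2 CPM were most like each member were listed as a description, among genes with a mean of at least 1 CPM. Most of the likeness is set by the differences between populations. *Cxcr5* was closest to *Gng2* (r = 0.97), *Cyfip1* (0.97) and *Nr2f6* (0.96), the first a G protein γ subunit. *Cxcr3* was closest to *Maged1* (r = 0.96), *Gcat* (0.95) and *Melk* (0.95). *Cxcr6* was closest to *Rora* (r = 0.98), a nuclear receptor gene, *Bmp7* (0.98) and the chemokine receptor gene *Ccr8* (0.98). *Ccr4* was closest to *Fut7* (r = 0.99), a fucosyltransferase of selectin ligands, *Bmp7* (0.98) and a gene listed under a date (0.98). *Ccr6* went with *St14*, *Fcrl1* and *Slc9a7* (r = 0.96 each). *Ccr7* went with *Klf13*, *Vps37b* and *Gm45552* (r = 0.97 each). *Ccr2* went with *Ramp1*, *Cd7* (r = 0.95 each) and *Gzmb* (0.94), a granule protease gene. *Cxcr4* (r = 0.89 to *Marveld2* and *Akr1b10*) and *Ccr9* (r = 0.83 to *Gm12216*) had no neighbour as close.

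Among 15 other chemokine receptors, 9 passed the filter in Tfh against non-Tfh cells of WT mice, 5 were called higher and 2 lower, against 22.8% and 20.4% of all genes, with a median log2 fold change of 1.65 where the median of all genes was 0.00. *Ccr10* (log2 fold change 3.01, SE 0.37) and *Ccr8* (2.47, SE 0.31) were among the largest changes. *Ccr8* was 41.5 ± 16.3 CPM in WT Tfh and 7.49 ± 3.53 CPM in WT non-Tfh cells (SD, n = 6). In GC B against non-GC B cells of WT mice 5 of 8 were called higher and 1 lower, against 24.8% and 23.1% of all genes. *Ccr10* was 4.85 ± 4.68 CPM in GC B (SD, n = 6) and 0.0131 ± 0.0293 CPM in non-GC B cells (SD, n = 5). The next largest changes were those of 2 atypical receptors, which bind chemokines without G protein signaling. *Ackr4* was 25.1 ± 4.38 CPM in GC B (SD, n = 6) and 0.368 ± 0.370 CPM in non-GC B cells (SD, n = 5), and *Ackr2* 45.8 ± 10.0 and 2.85 ± 1.83 CPM. In S1PR4-/- mice 5 of 9 were called higher and 2 lower in Tfh cells (22.3% and 21.1% of all genes) and 5 of 7 higher in GC B cells (25.3% of all genes). Against non-Tfh cells, non-GC B cells had 3 of 8 higher and 4 lower (19.7% and 19.1% of all genes), and against Tfh cells, GC B cells had 3 of 9 higher and 2 lower (20.1% and 24.2%). *Ccr8* had no count in the 5 WT non-GC B samples.

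Of 16 ligands of the members, at most 7 passed the filter in any comparison. In WT Tfh against non-Tfh cells 4 of 5 were called higher (22.8% of all genes) and 0 lower, among them *Ccl22*, a CCR4 ligand, at 6.67 ± 5.04 against 0.178 ± 0.158 CPM (SD, n = 6). *Cxcl16*, the CXCR6 ligand, was 2.60 ± 1.71 against 0.151 ± 0.124 CPM, and *Cxcl10*, a CXCR3 ligand, 4.92 ± 3.45 against 0.793 ± 0.578 CPM. *Ccl22* and *Cxcl16* are also made by myeloid and B cells, whose marker sums were higher in Tfh than in non-Tfh samples, at 20.8 to 77.7 against 5.32 to 40.3 CPM for the myeloid and dendritic list. In S1PR4-/- Tfh cells 2 of 4 were called higher (22.3% of all genes). *Ccl22* was the ligand called in GC B cells (1 of 5 in WT and 1 of 4 in S1PR4-/- mice, against 24.8% and 25.3% of all genes), at 3.00 ± 1.75 CPM in WT GC B (SD, n = 6) and 0.745 ± 0.189 CPM in WT non-GC B cells (SD, n = 5). Non-GC B against non-Tfh cells gave 2 of 4 higher (19.7% of all genes), and GC B against Tfh cells 2 of 6 lower (24.2% of all genes).

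Of 26 signaling genes behind the receptors, 24 passed the filter in WT Tfh against non-Tfh cells, where 5 were called higher and 5 lower with a median log2 fold change of 0.12. *Pik3r5*, the regulatory subunit of the PI3Kγ kinase, was 28.0 ± 5.85 against 214 ± 18.2 CPM (SD, n = 6, log2 fold change -2.93, SE 0.12). *Rasgrp2*, an exchange factor for Rap1, was 42.2 ± 6.30 against 245 ± 29.5 CPM (-2.53, SE 0.11), and *Tiam1*, an exchange factor for Rac, was higher (2.18, SE 0.21). These counts were close to the 22.8% and 20.4% of all genes. In WT GC B against non-GC B cells 3 of 25 were called higher and 5 lower, shares below the 24.8% and 23.1% of all genes, with *Arrb1*, a β-arrestin gene (-2.94, SE 0.33), *Grk3*, a receptor kinase gene (-2.37, SE 0.68), and *Rasgrp2* (-1.51, SE 0.14) changing most. The S1PR4-/- counts were 4 higher and 5 lower of 24 in Tfh cells and 5 higher and 7 lower of 25 in GC B cells, where 22.3%, 21.1%, 25.3% and 22.9% of all genes were called. Across lineages they were 4 higher and 6 lower of 25 in non-GC B cells (19.7% and 19.1% of all genes), and 3 higher and 7 lower of 25 in GC B cells (20.1% and 24.2%). In the 4 genotype comparisons and the 2 interactions, 0 genes of the 3 lists were called by edgeR.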

How the data were processed

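Chemokine receptor transcripts were measured in 45 sorted samples. The authors used polyadenylated RNA. According to the paper's methods and the submitters' notes, Cutadapt 2.10 served for trimming, STAR 2.5.3 for alignment to mm10, Picard for duplicates and RSEM 1.3.0 for quantification. The authors deposited RSEM's expected counts, without scaling, and 8.83% of values were not whole. Symbols matched GENCODE M21, although the methods name M30, so coordinates and exon lengths come from M21. A table of normalized values was not used.

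Counts were rounded, filtered with filterByExpr and scaled by TMM within each comparison, and tested with edgeR 4.0.16 (R 4.3.3, quasi-likelihood, Benjamini-Hochberg over all genes tested). Genes were called at an adjusted p under 0.05 with a fold change over 1.5, interactions by the adjusted p alone. CPM levels used a common TMM scaling over the 8 groups, and log2 CPM a prior count of 2. DESeq2 1.42.0, limma 3.58.1 (voom), RLE scaling, no filter, all groups in 1 fit, a replicate block and leaving out each sample were alternatives. Scripts were tested on simulated data. Replicates of a group differed beyond counting noise in every pair (chi-square per degree of freedom of 13.3 or more), and whether each came from a separate mouse is not stated for all samples, so p-values measure the spread between samples.

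Named genes were the 9 members, up to 3 genes per pathway list and comparison with the largest called change and a mean of at least 1 CPM, and the 3 genes most like each member, of which some are not reported here. The members and lists were chosen with earlier results of these data known. Pathway lists were 15 other receptors, 16 ligands and 26 signaling genes. Same-numbered Tfh and non-Tfh samples of S1PR4-/- mice deviated together in 6 of 6 pairs (r 0.13 to 0.24), so the numbers may pair them. The values reported are from the fit without the block, and the block left 8 members called.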

Additional observations from a re-analysis of the deposited data

Results flagged for a closer look

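A gap between a sample and the rest of its group was looked for in 58 sets, each a member in a group that averaged 1 CPM or more, and chance gives about 1 such set in 20. It was found in 2, both in S1PR4-/- Tfh cells. *Ccr2* was 4.49 CPM in replicate 3, where the next lowest sample had 22.2 CPM, and *Cxcr5* was 721 CPM in replicate 5, where the next lowest had 952 CPM. The same replicate 3 had the lowest summed myeloid and dendritic markers of its group (13.4 CPM) and the highest summed Tfh markers (2985 CPM, against 1933 to 2608 CPM in the others).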

How the results depend on the processing

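Counts of called members stayed within 1.5 times their reported value under every alternative except in S1PR4-/- GC B against non-GC B cells, where 3 were called by limma voom and 3 without the samples of high *Siglech*, an alternative chosen after seeing the data, and in S1PR4-/- against WT Tfh cells, where DESeq2 called 1. Leaving out each sample gave 7 to 8 called members in Tfh against non-Tfh cells of WT mice, 6 to 8 in GC B against Tfh cells and 16 to 20 passing steps in the order of WT populations. Without the samples of high *Siglech*, *Ccr2* turned to 0.79 (WT) and 2.69 (S1PR4-/-) in GC B against non-GC B cells and *Ccr9* to 6.12 (S1PR4-/-). The S1PR4-/- values then rest on a lone sample with 0 counts of *Ccr9* and 1 of *Ccr2*. In non-GC B against non-Tfh cells *Ccr9* turned to -2.80 in the same way, to -1.09 by limma voom and to -1.20 with the replicate block, and lay between -0.62 and 0.70 with each sample left out. *Ccr2* in Tfh against non-Tfh cells lay between -0.20 and 0.049 in WT and between -0.18 and 0.16 in S1PR4-/- mice with each sample left out. The cause of these changes was not tested.

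Pairing by replicate number was less clear for the other samples. The same-numbered sample correlated best in 4 of 6 pairs of WT Tfh and non-Tfh samples (r of 0.07 to 0.35). For GC B and non-GC B samples it did so in 4 of 5 WT pairs (r of -0.03 to 0.18). In S1PR4-/- mice it did so in 0 of 4 such pairs (r of -0.09 to 0.04). Pairing of WT samples by number is therefore possible. With the replicate block 8 members were called in Tfh against non-Tfh cells of WT mice, 6 in GC B against non-GC B cells of WT mice and 4 of S1PR4-/- mice. Of 35 further genotype results for single members, none of them called, 23 changed sign under some alternative, in 71 of 734 values. Depth limits *Cxcr6* and *Ccr4* in B cells and *Ccr9* in Tfh and GC B cells, where samples held few counts. The level given for 3 counts covers counting error only.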
